A study of Mus musculus with 6 samples.

Results

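Intercalated cells are the acid-base cells of the connecting tubule and collecting duct. The 10 genes described here are those of proton pump subunits, acid-base carriers and a cytosolic carbonic anhydrase of these cells, together with the transcription factor that specifies them. They were taken by gene name from the deposited tables, Atp6v1b1, Atp6v0d2, Atp6v1g3, Atp6v0a4, Slc4a1, Slc26a4, Slc4a9, Foxi1, Rhcg and Car2, and all 10 were found among the 54532 genes of the tables. All 10 also passed the filter on low counts, which kept 15816 genes.

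RNA was sequenced from whole kidneys of C57BL/6J mice aged 6 to 8 weeks by the labels (the methods give a somewhat older range and male sex). Every mouse had received cisplatin at 18 mg/kg and was examined at 72 h, so no untreated kidney enters the comparison. The groups were 3 WT mice, numbered 1, 2 and 3, and 3 TRPM2-KO mice, numbered 1, 2 and 4 and called Trpm2-/- here. The Trpm2-/- allele is a constitutive deletion of part of the gene that leaves a protein without a functional channel, and the WT mice were bought from a supplier, so a difference in origin cannot be told apart from genotype.

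Total counts on genes were between 14053307 and 17150089 reads per library. Trpm2 had 5, 5 and 27 counts in WT mice and 10, 16 and 20 in Trpm2-/- mice, and a gene-level count covers the exons that the allele keeps, so it does not check the labels. Markers of the tubule were present in all 6 libraries. The 9 proximal tubule markers summed to 2871 to 3499 CPM (counts scaled to a common library size, normalized by TMM) in WT kidneys and to 811 to 1288 CPM in Trpm2-/- kidneys, and the 10 principal cell markers to 1439 to 1873 and 817 to 1111 CPM. Aqp2 alone held 970 to 1273 CPM of the principal cell sum in WT and 484 to 627 CPM in Trpm2-/- kidneys, so 1 gene weighs heavily in it.

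Intercalated cells come in an alpha type, which secretes acid, and a beta type, which secretes bicarbonate. Both use the vacuolar proton pump (V-ATPase), a rotary machine whose soluble V1 part hydrolyses ATP and whose membrane V0 part carries the protons, and both depend on the forkhead transcription factor FOXI1. The alpha cell puts the pump on its luminal side and the anion exchanger AE1, encoded by Slc4a1, on its blood side, while the beta cell has the exchanger pendrin, encoded by Slc26a4, on its luminal side. Loss of ATP6V1B1, ATP6V0A4, SLC4A1 or FOXI1 function causes distal renal tubular acidosis.

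Of the 10 genes, only Atp6v0a4 passed an adjusted p under 0.05, and it was lower in Trpm2-/- kidneys (edgeR quasi-likelihood test with Benjamini-Hochberg adjustment over 15816 genes). Over all genes tested, 7.28% were called lower and 4.74% higher, 12% in either direction. No member was called higher by edgeR, DESeq2 or limma-voom, and at an unadjusted p under 0.05 there were 2 lower and 0 higher members, where 28.3% of all genes passed in either direction. All 3 Trpm2-/- values lay below all 3 WT values for 2 members, Atp6v0a4 and Slc4a1, as they did for 16.8% of all genes tested. The genotypes did not overlap, in either direction, for 33.5% of genes. The median log2 fold change of the members was 0.10, beside 0.02 over all genes tested. In whole kidney, fewer cells of a type and less RNA per cell cannot be told apart.

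**Figure D1:**
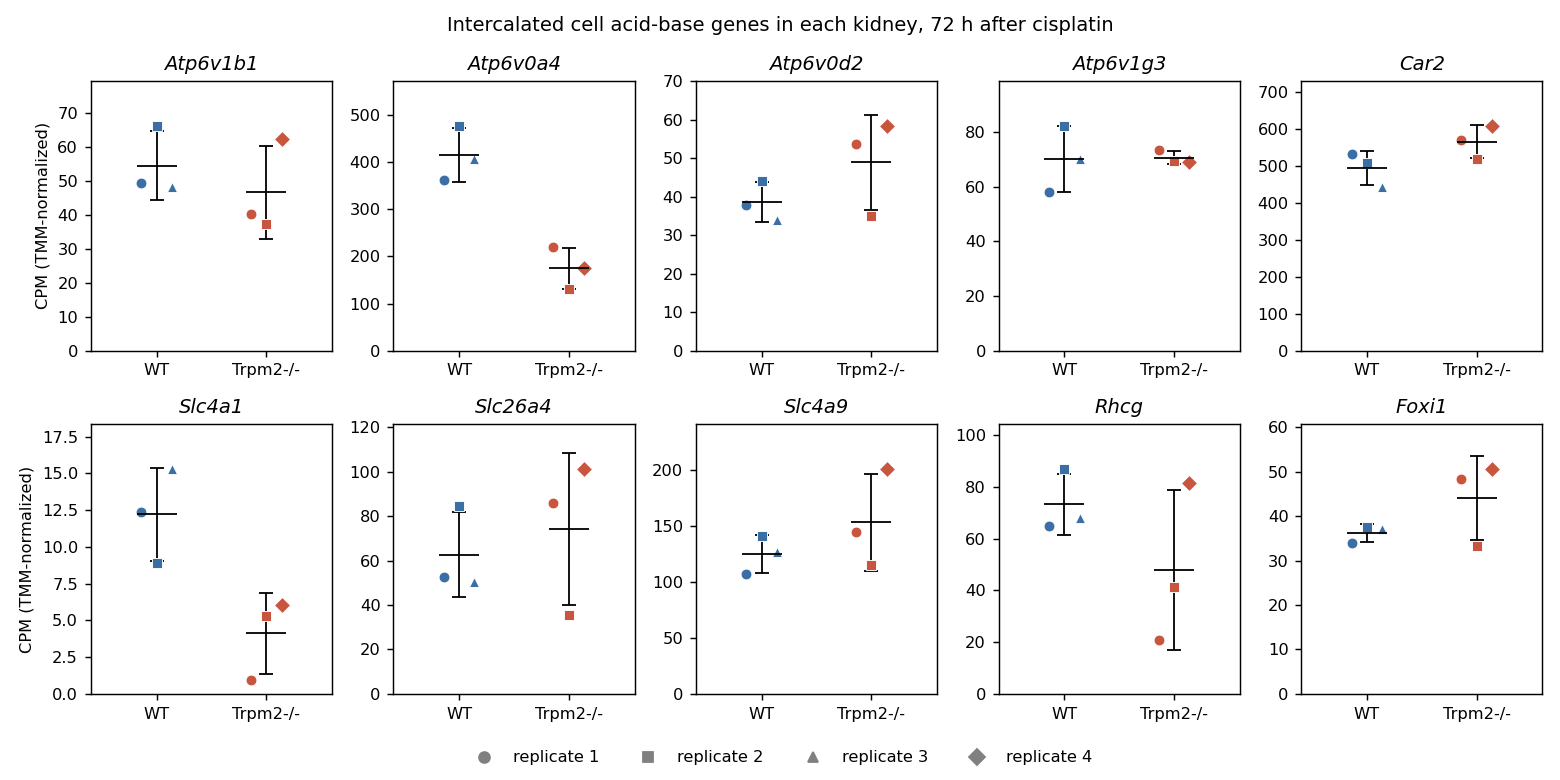
Normalized CPM of the 10 genes in each kidney (vertical axis from 0, its range set for each gene), with WT mice in blue and Trpm2-/- mice in red, marker shape giving the replicate number, and bars the mean and SD of 3 mice. Only Atp6v0a4 and Slc4a1 show no overlap between genotypes, and Rhcg ranges from 20.8 to 81.6 CPM among Trpm2-/- kidneys.

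Atp6v0a4 encodes the a4 subunit of the V0 part, which anchors the pump in the luminal membrane of intercalated cells and, in mice, is also made in the proximal tubule. It lies on the minus strand of chromosome 6 from 38048483 to 38124586 (GRCm38). Its level was 363, 476 and 406 CPM in WT mice 1, 2 and 3 and 219, 131 and 175 CPM in Trpm2-/- mice 1, 2 and 4. The highest Trpm2-/- kidney was thus well under the lowest WT kidney. Mean levels were 415 ± 57.4 and 175 ± 43.7 CPM (SD, n = 3 mice each), which puts Trpm2-/- kidneys at 0.422 of the WT level (log2 fold change -1.25 ± 0.199 SE, 95% interval -1.69 to -0.80, adjusted p = 0.00546 from edgeR). The call held in all 17 alternatives, one of which left out the genes of the mitochondrial genome. Those genes took 4.43% to 4.72% of counts in WT and 7.91% to 11.04% in Trpm2-/- libraries.

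Several measurements stand beside this decrease. Of the 9 proximal tubule markers, 8 were called lower, with a median log2 fold change of -1.40. Slc34a1, the apical phosphate carrier, fell by 2.73, and Cubn, the endocytic receptor cubilin, fell by 1.40 on the log2 scale. Without WT replicate 2 or WT replicate 3, 5 of the 9 were called. Atp6v0a4 shares 5.21% of its annotated exon bases with D630045J12Rik on the same strand and 1.25% with Tmem213 on the opposite strand, and it is not stated whether counting used strand. For D630045J12Rik, named like Tmem213 after its values were seen, the difference was 0.10 ± 0.152 (log2, SE; adjusted p = 0.724 from edgeR). That of Tmem213 was -0.98 ± 0.267 (log2, SE; adjusted p = 0.0434 from edgeR), a call lost in 10 of 17 alternatives. The part of the proximal tubule or of these shared bases in the decrease of Atp6v0a4 was not tested.

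Atp6v1b1 encodes the B1 subunit, the form of the ATP-binding B subunit typical of intercalated cells and the inner ear. Its level was 49.2, 66.1 and 48.0 CPM in WT mice and 40.2, 37.4 and 62.3 CPM in Trpm2-/- mice. Trpm2-/- replicates 1 and 2 lay below the WT range and Trpm2-/- replicate 4 within it. The difference was -0.22 on the log2 scale (95% interval -0.70 to 0.25, adjusted p = 0.538 from edgeR).

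Atp6v0d2 encodes the d2 subunit of the pump's central stalk, which is also prominent in osteoclasts and some macrophages. It had 37.9, 44.2 and 33.9 CPM in WT mice and 53.6, 35.0 and 58.4 CPM in Trpm2-/- mice. Replicates 1 and 4 were above every WT kidney and replicate 2 was inside the WT range. The genotypes differed by 0.34 on the log2 scale (95% interval -0.10 to 0.78, adjusted p = 0.292 from edgeR). Of the 14 macrophage and osteoclast markers, 11 were tested and 2 were called lower, Acp5 (-1.24) and C1qa (-2.03, its groups overlapping), the latter lost in 9 of 17 alternatives. None was called higher, while DESeq2 called 1 and limma-voom 0 higher, and 2 were higher at an unadjusted p under 0.05. These were Lyz2, with 1.35 (adjusted p = 0.0911 from edgeR) and no overlap, and Cd14, with 0.82 (adjusted p = 0.0718 from edgeR) and overlapping groups, both named after their values were seen. The list summed to 214 to 254 CPM in WT and 190 to 276 CPM in Trpm2-/- kidneys, Dcstamp was at 0 in every library and Ocstamp was at 0.257 CPM or less.

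Atp6v1g3 encodes the G3 subunit of the pump's peripheral stalk, found mainly in kidney. It had 57.9, 82.1 and 70.0 CPM in WT mice and 73.3, 69.2 and 69.1 CPM in Trpm2-/- mice. All Trpm2-/- values fell inside the WT range. The log2 fold change was 0.01 (95% interval -0.32 to 0.34, adjusted p = 0.973 from edgeR), so a change of more than about 0.34 on the log2 scale in either direction lies outside the interval.

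**Figure D2:**
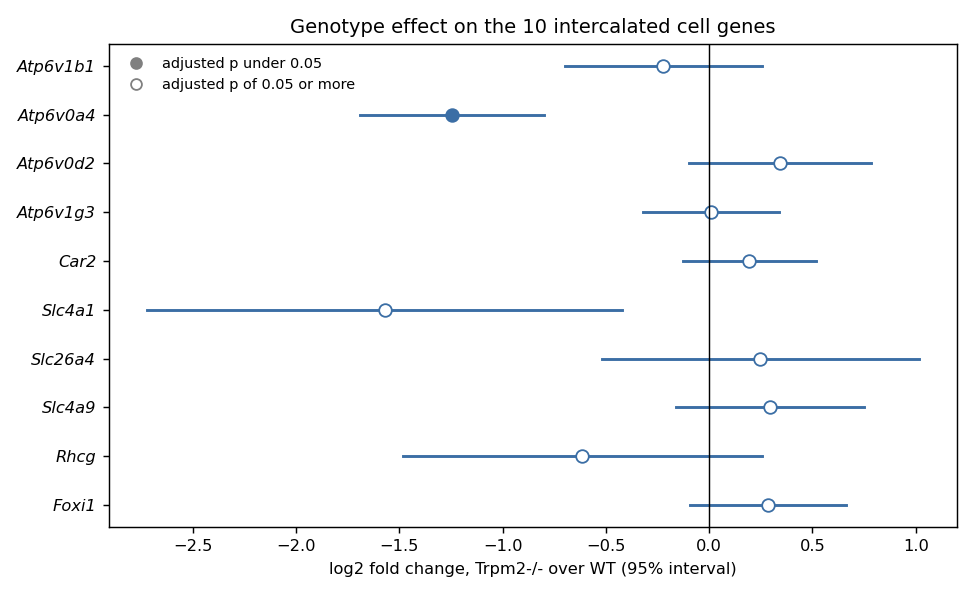
Log2 fold change of each of the 10 genes, Trpm2-/- over WT (horizontal axis, log2 scale), with the 95% interval from edgeR, filled where the adjusted p is under 0.05. The interval of Atp6v0a4, -1.69 to -0.80, is wholly below 0 and passes the adjusted test, and that of Slc4a1, -2.72 to -0.42, is below 0 without passing it.

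The remaining subunits of the pump, many of which most cells use for lysosomes and endosomes, formed a list of 20 genes, all of them tested. Of these, 4 were called lower and 16 were not called, with a median log2 fold change of -0.23 beside 0.02 over all genes. The 4 were all parts of V1, the part that hydrolyses ATP. Atp6v1f fell from 223, 271 and 276 CPM to 146, 172 and 162 CPM, a log2 fold change of -0.68. Atp6v1h, a regulatory subunit, fell by 0.63, Atp6v1e1 by 0.60 and Atp6v1d by 0.45 on the log2 scale. Leaving out WT replicate 2 or WT replicate 3 left 0 of the 4 calls, and leaving out WT replicate 1 left 2. None of the 4 was called with the replicate number as a block or at the study's threshold. In these 20 genes, 0 were called higher by edgeR, DESeq2 or limma-voom, and 1 (Atp6v0a1, 0.29) had an unadjusted p under 0.05 in that direction.

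**Figure D3:**
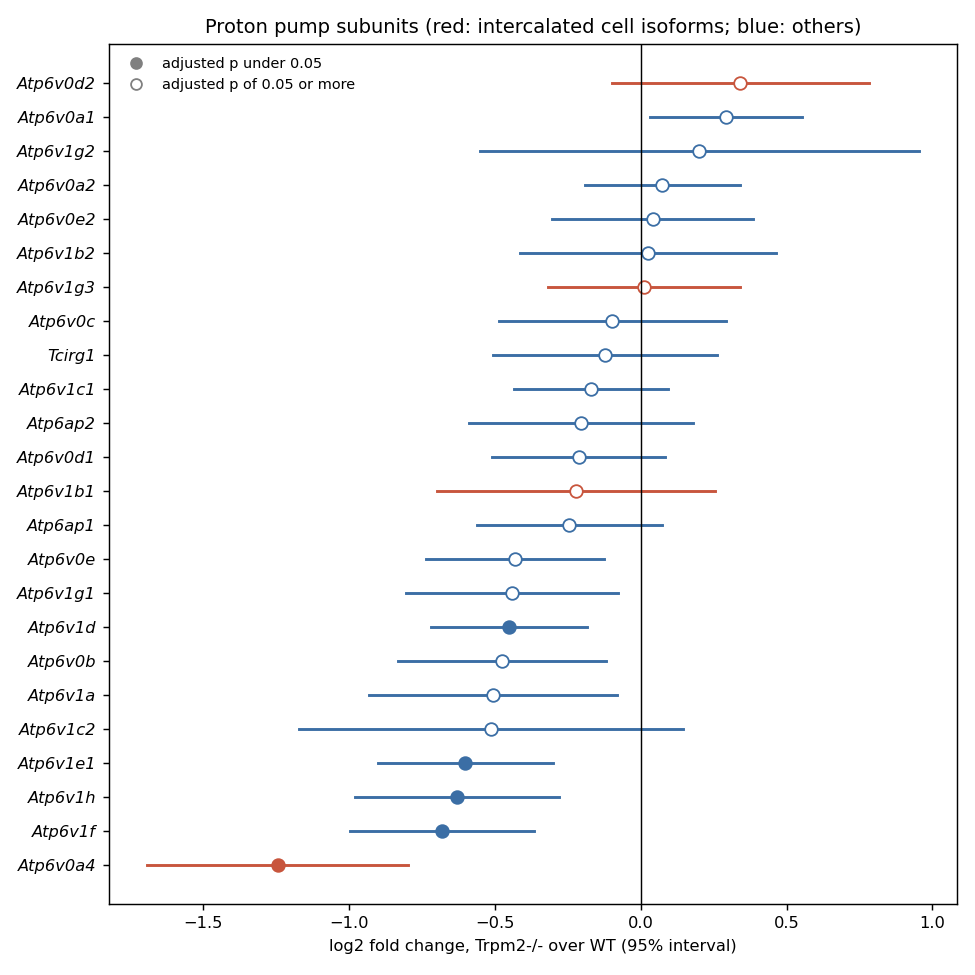
Log2 fold change of the 24 proton pump subunits and accessory proteins (horizontal axis, log2 scale, with 95% interval from edgeR), the 4 intercalated cell isoforms in red and the 20 others in blue, filled where the adjusted p is under 0.05. Atp6v0a4, which in mice is also made in the proximal tubule, has the lowest value, -1.25, and Atp6v0d2 the highest, 0.34. The 4 isoforms in red thus span the whole range.

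Several subunits exist as a widely used form and a form typical of intercalated cells, here called the intercalated cell form. The share of each subunit's FPKM (a count scaled by gene length and library size, which sets genes of different length on one scale) held by that form was compared. In mice a4 is also made in the proximal tubule, and d2 in some macrophages. A whole-kidney share is therefore not that of intercalated cells alone. The a4 form made up 63.9%, 71.2% and 65.7% of the a subunit transcripts in WT mice and 50.5%, 35.9% and 44.5% in Trpm2-/- mice. Its mean share went from 67.0% ± 3.78 to 43.6% ± 7.37 (SD, n = 3), with no overlap (two-sided exact permutation test, p = 0.1, adjusted p = 0.133 over 4 shares). The d2 form went the other way, from 16.0%, 15.5% and 13.9% to 21.5%, 16.99% and 23.1% of the d subunit, and the G3 form from 15.0%, 16.8% and 14.4% to 21.9%, 16.97% and 21.5% of the G subunit. Neither overlapped between genotypes (two-sided exact permutation test, p = 0.1 and adjusted p = 0.133 for each). The B1 form held 11.4%, 12.2% and 11.1% of the B subunit in WT mice and 7.20%, 8.00% and 16.5% in Trpm2-/- mice, which overlapped (two-sided exact permutation test, p = 1). A p of 0.1 is the smallest that 3 mice against 3 allow, so none of the 4 shares could pass the threshold. A share also moves with the other forms: Atp6v1g1, the common G subunit, had 176 ± 21.8 FPKM in WT and 131 ± 21.2 FPKM in Trpm2-/- kidneys (SD, n = 3).

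**Figure D4:**
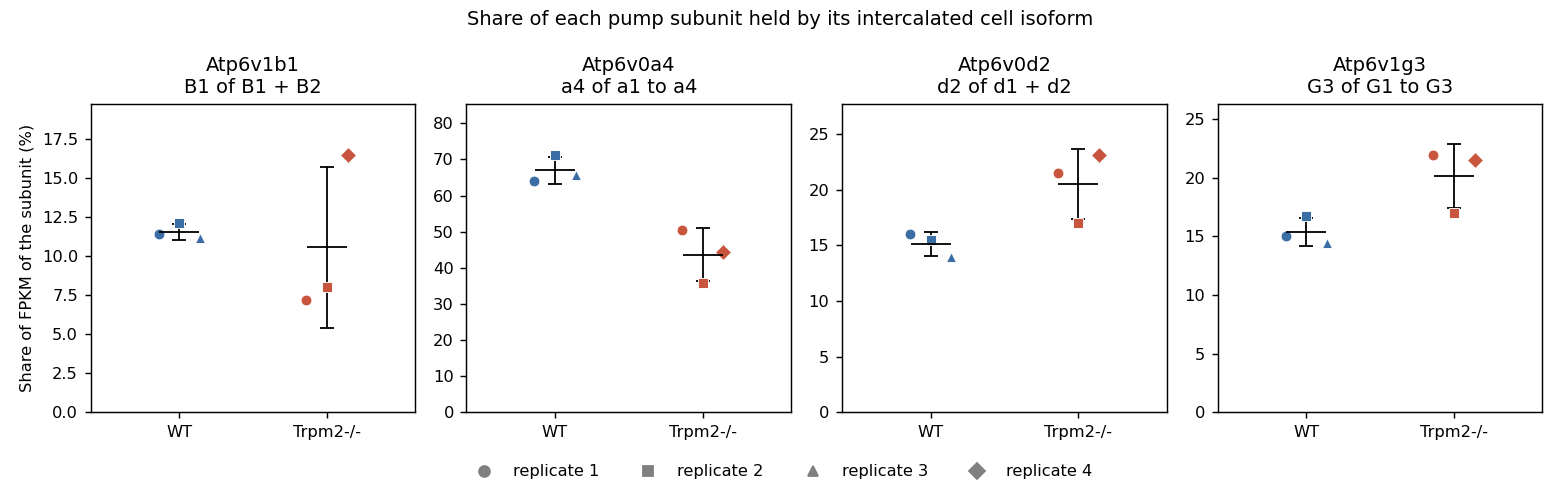
Share of each subunit's FPKM held by its intercalated cell form in each kidney (percent, vertical axis from 0, its range set for each gene), WT in blue and Trpm2-/- in red, with mean and SD of 3 mice. The a4 share lies at 63.9% to 71.2% in WT and 35.9% to 50.5% in Trpm2-/- kidneys, and the d2 and G3 shares lie higher in every Trpm2-/- kidney. In mice a4 is also made in the proximal tubule.

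The carriers of the alpha cell came next, followed by the enzyme gene Car2. Slc4a1 encodes AE1, the exchanger that returns bicarbonate to the blood, and is also the band 3 protein of red blood cells. It is on the minus strand of chromosome 11 from 102348824 to 102366203 (GRCm38). Slc4a1 had 201, 139 and 249 counts in WT mice and 16, 78 and 97 counts in Trpm2-/- mice, or 12.4, 8.93 and 15.3 CPM against 0.979, 5.33 and 6.04 CPM. All Trpm2-/- kidneys were below all WT kidneys, and Trpm2-/- replicate 1 was far below the others. Its log2 fold change, -1.57 ± 0.512 (SE, 95% interval -2.72 to -0.42), had an unadjusted p of 0.0125 and an adjusted p of 0.0768 in edgeR's quasi-likelihood test. It missed the threshold there and passed it with DESeq2 (adjusted p = 0.00873), with limma-voom (adjusted p = 0.0466), with no filter on low counts (adjusted p = 8.45e-07), and at the study's own threshold of an absolute log2 fold change above 1 with an unadjusted p under 0.05. That threshold was met by 4.1% of all genes tested in the lower and 3.5% in the higher direction. Slc4a1 did not pass in the other 13 of 17 alternatives, among them every fit with a mouse left out. The highest adjusted p was 0.234 (edgeR without WT replicate 3). Over all alternatives its log2 fold change was between -2.03 and -0.90.

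Markers of red blood cells were close to absent. The 14 erythroid markers summed to 11.1 to 13.3 CPM in WT and 12.02 to 13.9 CPM in Trpm2-/- kidneys, most of it Sptb and Klf1. Alas2 and Rhag were at 0.370 CPM or less in every library, and Gata1 and Hbb-bt were at 0 counts. Hba-a1, Hba-a2 and Hbb-bs were at 0.367 CPM or less, although these globin genes have near-identical copies and their counts are uncertain. Of the 4 markers tested, Klf1 was called lower (-1.21), a call lost in 6 of 17 alternatives, while Epb42, named after its values were seen, had 1.54 (adjusted p = 0.0709 from edgeR).

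Rhcg encodes the ammonia channel RhCG of alpha intercalated cells, connecting tubule cells and principal cells. It had 65.1, 86.9 and 67.9 CPM in WT mice and 20.8, 41.3 and 81.6 CPM in Trpm2-/- mice. Replicates 1 and 2 were below every WT kidney, while replicate 4 was within the WT range, and the highest Trpm2-/- value was 3.93 times the lowest. On the log2 scale the difference was -0.61 ± 0.387 (SE, 95% interval -1.48 to 0.25, adjusted p = 0.336 from edgeR). Without Trpm2-/- replicate 4 it was -1.24 and passed the threshold (adjusted p = 0.0233 from edgeR). Without Trpm2-/- replicate 1 it was -0.25 and did not pass (adjusted p = 0.601 from edgeR). Rhcg passed in 3 of 17 alternatives.

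Car2 encodes the cytosolic carbonic anhydrase 2, which supplies protons and bicarbonate in intercalated cells and is made in many other tubule cells. It was the most abundant member, with 531, 508 and 443 CPM in WT mice and 570, 517 and 608 CPM in Trpm2-/- mice. The groups overlapped, and the log2 fold change was 0.19 (95% interval -0.13 to 0.52, adjusted p = 0.418 from edgeR).

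The carriers of the beta cell did not pass the test in either direction. Slc26a4, the luminal chloride and bicarbonate exchanger pendrin, had 52.7, 84.6 and 50.3 CPM in WT mice and 85.8, 35.7 and 101 CPM in Trpm2-/- mice. Trpm2-/- replicate 2 was the lowest and replicate 4 the highest of all 6 kidneys. The log2 fold change was 0.25 (95% interval -0.52 to 1.02, adjusted p = 0.685 from edgeR), and it turned to -0.03 without Trpm2-/- replicate 4.

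Slc4a9 encodes AE4, the exchanger on the blood side of beta cells. It had 107, 141 and 127 CPM in WT mice and 144, 115 and 200 CPM in Trpm2-/- mice. Replicates 1 and 4 were above the WT range and replicate 2 inside it, with a log2 fold change of 0.30 (95% interval -0.16 to 0.75, adjusted p = 0.380 from edgeR).

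Foxi1 encodes the forkhead factor FOXI1, which is required for intercalated cells to form and is known to activate genes of the pump and of the anion exchangers. It had 33.9, 37.7 and 37.0 CPM in WT mice, the narrowest WT spread of the members, and 48.3, 33.3 and 50.6 CPM in Trpm2-/- mice. As for Atp6v0d2 and Slc4a9, replicates 1 and 4 were above the WT range, but replicate 2 was below it. This gave a log2 fold change of 0.28 (95% interval -0.09 to 0.66, adjusted p = 0.307 from edgeR).

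Since FOXI1 is known to act on pump genes, the 250 bases before the RefSeq start of the members (GRCm38.p6) were searched for the forkhead heptamers TGTTTAC and TATTTAC on both strands. No promoter was given for Slc4a1, Atp6v0d2 and Car2. Slc4a9 had a promoter but was left out of the result, and whether it held a match is not reported here. The result therefore covers 6 of the 10 members. One of them, Atp6v1b1, held a match, TGTTTAC on the gene's own strand, starting 98 bases before the start. Atp6v0a4, Atp6v1g3, Slc26a4, Foxi1 and Rhcg held none. Of 32851 promoters in the table, 5.76% held either heptamer in this window. A match is a description of the letters, not of binding. The windows of Atp6v1b1 (chr6:83742767-83743016, plus strand), which was not called, of Atp6v0a4 (chr6:38124587-38124836, minus strand), which fell, and of Foxi1 (chr11:34208090-34208339, minus strand) are shown 5′ to 3′ so that the pump gene with the match can be set beside the one that changed, with the heptamer in capitals.
Atp6v1b1: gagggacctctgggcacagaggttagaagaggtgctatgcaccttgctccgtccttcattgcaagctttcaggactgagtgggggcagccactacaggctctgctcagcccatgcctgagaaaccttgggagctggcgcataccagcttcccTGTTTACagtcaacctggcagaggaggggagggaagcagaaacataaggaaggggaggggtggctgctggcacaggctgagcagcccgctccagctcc
Atp6v0a4: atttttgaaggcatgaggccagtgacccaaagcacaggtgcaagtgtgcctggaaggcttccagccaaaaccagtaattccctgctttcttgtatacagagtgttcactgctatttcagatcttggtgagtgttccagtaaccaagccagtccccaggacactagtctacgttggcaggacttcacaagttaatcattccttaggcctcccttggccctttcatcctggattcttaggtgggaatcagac
Foxi1: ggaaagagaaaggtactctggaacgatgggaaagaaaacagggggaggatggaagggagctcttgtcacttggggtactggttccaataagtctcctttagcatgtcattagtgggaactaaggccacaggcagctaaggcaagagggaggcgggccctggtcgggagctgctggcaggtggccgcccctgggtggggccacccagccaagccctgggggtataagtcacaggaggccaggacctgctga

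Per length, the members spanned a wide range of levels. In WT kidneys Car2 had 178.4 ± 17 FPKM, Atp6v0a4 73.0 ± 10.1, Slc4a9 37.3 ± 5.07, Atp6v1g3 32.5 ± 5.59 and Rhcg 28.7 ± 4.66 FPKM (SD, n = 3). Below them came Slc26a4 with 17.6 ± 5.40, Foxi1 with 13.4 ± 0.728, Atp6v0d2 with 12.5 ± 1.69, Atp6v1b1 with 10.9 ± 2.03 and Slc4a1 with 2.18 ± 0.564 FPKM (SD, n = 3). Neighbours whose ranges overlapped were Slc4a9 and Atp6v1g3, Atp6v1g3 and Rhcg, Foxi1 and Atp6v0d2, and Atp6v0d2 and Atp6v1b1. In Trpm2-/- kidneys Atp6v0a4 ranked 4 in place of 2, with 31.0 ± 7.80 FPKM, and overlapped Atp6v1g3 with 33.0 ± 1.12 FPKM (SD, n = 3). There the order below Car2 and Slc4a9 was little separated, since every neighbouring pair from Atp6v1g3 down to Atp6v1b1 overlapped. Slc4a1 was the lowest in both genotypes.

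Kidneys of one genotype differed from each other across many of these genes together. Trpm2-/- replicate 2 had the lowest value of the 3 Trpm2-/- kidneys for 7 of the 10 members, and Trpm2-/- replicate 4 the highest for 8. Among WT kidneys, replicate 2 was highest for 8 of the 10. How often these kidneys were lowest or highest over all genes was not counted, so the order is not shown to be particular to the members. The spread was wider in Trpm2-/- mice for 8 of the 10 members, Atp6v1g3 and Car2 being the exceptions. The coefficient of variation was 66.6% for Slc4a1, 64.7% for Rhcg and 46.1% for Slc26a4 in Trpm2-/- kidneys, where the median over all genes tested was 19.0%, beside 12.7% in WT kidneys. The mean centred log2 CPM of the 10 members was 0.04, 0.30 and 0.10 in WT mice and -0.32, -0.37 and 0.25 in Trpm2-/- mice. Among the members, Atp6v1b1 lay closest to this profile, with a root mean square difference of 0.087 over the 6 samples. The 5 genes outside the members whose centred log2 CPM lay closest were Ppp6r2, Tmem151a, Anxa3, Olfm1 and Cst6, with root mean square differences from 0.056 to 0.090.

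A list of further intercalated cell genes held 21 genes, all tested. None of the 21 was called by edgeR in either direction, and at an unadjusted p under 0.05 there were 2 lower and 3 higher. DESeq2 called 2 lower and 1 higher, and limma-voom called 0. Their median log2 fold change was -0.16. Named after its values were seen, Kit, the stem cell factor receptor that marks intercalated cells, had 14.4, 14.1 and 14.4 CPM in WT mice and 30.6, 19.5 and 19.6 CPM in Trpm2-/- mice, with no overlap (log2 fold change 0.70, adjusted p = 0.0523 from edgeR). Kit passed the threshold in 6 of 17 alternatives, and over the alternatives its adjusted p was between 0.0103 and 0.167. Also named after its values were seen, Aqp6, a water and anion channel of alpha cell vesicles, had 62.1, 48.9 and 90.3 CPM against 18.7, 30.0 and 51.9 CPM, which overlapped (log2 fold change -0.9997, adjusted p = 0.0883 from edgeR). Leaving out Trpm2-/- replicate 4 raised the number called lower to 6, and leaving out Trpm2-/- replicate 2 raised the number called higher to 2.

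Carbonic anhydrases other than Car2 and the 2 counted with the further intercalated cell genes, Car12 and Car15, were read as a list. Of 13 genes, 10 were tested, 4 were called lower and 1 higher, with a median log2 fold change of -0.87. Car13, another cytosolic form, rose from 12.6, 10.02 and 9.75 CPM to 32.4, 23.1 and 21.4 CPM (log2 fold change 1.25, adjusted p = 0.00596 from edgeR). The membrane-bound forms Car14, Car9 and Car4 fell, with log2 fold changes of -1.83, -2.21 and -1.29, as did the mitochondrial Car5a, with -2.86. Car5a had few reads, 30, 25 and 59 counts in WT mice and 1, 3 and 11 in Trpm2-/- mice. Over the alternatives its log2 fold change was between -4.09 and -1.05. Car12 and Car15, also membrane-bound and named after their values were seen, were not called, with -0.05 (adjusted p = 0.894 from edgeR) and -0.60 (adjusted p = 0.186 from edgeR). Leaving out WT replicate 2 or 3, or Trpm2-/- replicate 1 or 2, left 2 of the 4 lower calls.

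Acid-base genes of other tubule segments, chiefly those of ammonia production and bicarbonate recovery in the proximal tubule, gave 14 genes, of which 3 were called lower. Slc38a3, the glutamine carrier that feeds ammonia production, fell from 416, 441 and 382 CPM to 112, 145 and 174 CPM, a log2 fold change of -1.53. Pck1, the cytosolic enzyme that turns its carbon to glucose, fell by 1.73, and Glud1, glutamate dehydrogenase, by 0.77 on the log2 scale, the last a call lost in 7 of 17 alternatives. Named after its values were seen, Slc4a4, the sodium bicarbonate carrier of the proximal tubule, overlapped between genotypes (log2 fold change 0.04, adjusted p = 0.960 from edgeR).

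Cells that neighbour intercalated cells were read from lists of their own. Of 10 principal cell markers, 9 were tested, 2 were called lower and 7 were not called, with a median log2 fold change of -0.23. Aqp2, the vasopressin-regulated water channel, went from 1273, 1128 and 970 CPM to 484, 627 and 554 CPM, a log2 fold change of -1.02. Aqp3 fell by 0.47, a call lost in 14 of 17 alternatives. Of 7 markers of the connecting and distal convoluted tubule, 6 were tested and 0 were called by edgeR or limma-voom, with 1 lower and 1 higher at an unadjusted p under 0.05. Of 6 thick ascending limb markers, 2 were called lower, Cldn10 (-1.67) and Umod (-1.97), the latter lost in 4 of 17 alternatives.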

How the data were processed

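Whole-kidney RNA from 3 WT and 3 Trpm2-/- mice was sequenced, with libraries from the NEBNext Ultra II kit on an Illumina HiSeq instrument. The submitters' processing notes name HISAT2, StringTie and the build mm9, while 98.3% of the 54409 matched genes of the deposited tables have the positions of GRCm38 (GENCODE mouse release 21). The counting tool and its use of strand are not given in the sources used here. The deposited count values are whole numbers of reads per gene, not normalized. The FPKM values deposited beside them, scaled for gene length and depth, served for levels between genes.

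Counts were tested in R 4.3.3 with edgeR 4.0.16 (filterByExpr, TMM, two-sided quasi-likelihood test, genotype only). The SE of a log2 fold change was its size over the square root of F. Alternatives used DESeq2 1.42.0, limma 3.58.1 with voom or on log2(FPKM + 1) and log2(FPKM + 0.1), other normalizations and filters, the threshold in the methods, no mitochondrial genes, a replicate block, and each mouse left out in turn. On simulated counts for 15816 genes of this comparison, edgeR recovered 191 of 192 changed genes tested (log2 change of 2) and called 9 others. Every simulated gene had the same spread beyond counting error, and every member changed by less than 2. The simulation therefore does not measure how readily changes of the members are found. Between replicates the chi-square per degree of freedom was 13.5 to 36.7, so all 6 libraries counted separately. A count of 3 corresponds to 0.175 to 0.213 CPM, for counting error only.

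The members and lists were chosen with earlier results of these data known. Named genes are all members, up to 5 genes of each other list with an adjusted p under 0.05, the pump isoforms compared and the 5 genes nearest in pattern outside the members. Other genes were named after their values were seen. P-values of the fits set a difference against the spread between these mice. Those of the shares rank it among regroupings of the mice. Some genes of the lists are not reported here by name.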

Additional observations from a re-analysis of the deposited data

How the results depend on the processing

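Over 17 alternatives for each of the 10 members, 158 of 170 values kept their direction and their side of the threshold, 7 passed it in addition, 0 lost it and 5 changed sign. Those that changed sign were Atp6v1g3 (-0.0017 with no filter on low counts, -0.12 to 0.14 with a mouse left out) and Slc26a4 (-0.26 with the replicate block, -0.026 to 0.58 with a mouse left out, the lowest without Trpm2-/- replicate 4). Among other genes, the values with a mouse left out ran from -0.15 to 0.20 for Atp6v1b2, from -0.23 to 0.0097 for Tcirg1 and from -0.060 to 0.21 for D630045J12Rik. The share held by B1, -1.01 points in all mice, ran from -3.97 to 0.669 points with a mouse left out.

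The number of members called lower was 1. It was 3 with no filter on low counts (Slc4a1 and Rhcg in addition) and 2 with DESeq2, limma-voom or the study's threshold (Slc4a1 in addition), and 1 to 2 with a mouse left out (Rhcg in addition without Trpm2-/- replicate 4). Genes called lower numbered 1152, or 1692 with no filter, 1444 with DESeq2, 1152 with limma-voom and 649 at the study's threshold. With a mouse left out they numbered 470 to 1240, and 1031 without Trpm2-/- replicate 4. Genes called higher numbered 750, or 1262 with no filter, and 160 to 819 with a mouse left out, fewest without WT replicate 3.

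Numbers 1 and 2 occur in both genotypes, but same-numbered mice did not deviate together (correlations of 0.064 and -0.012 across genes). With the replicate block, 2 members (Atp6v0a4 and Rhcg), 661 genes in all lower and 341 higher were called, as were 4 of the 21 further intercalated cell genes (lower) and 1 of the 20 other pump subunits (lower), which was none of the 4 called without the block. WT replicate 3 and Trpm2-/- replicate 4 share their number with no other mouse. With the block, the genotype effect therefore comes from replicates 1 and 2 of each genotype only. Any other cause of these changes was not tested. Slc4a1 had the fewest counts of the members, 16 to 249 a library.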

Other observations

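Ratios of FPKM between members within a kidney remove differences in depth, and are given as values only. Slc4a1 over Slc26a4, the alpha and beta cell exchangers, was 0.149, 0.067 and 0.193 in WT mice and 0.0073, 0.095 and 0.038 in Trpm2-/- mice. Atp6v0a4 over Atp6v1b1, the subunits a4 and B1 of the same pump, was 6.49, 6.35 and 7.45 in WT mice and 4.80, 3.10 and 2.47 in Trpm2-/- mice. Atp6v0d2 over Atp6v1b1 was 1.24, 1.08 and 1.14 in WT mice and 2.15, 1.51 and 1.51 in Trpm2-/- mice. Slc4a9 over Slc26a4 was 2.149, 1.767 and 2.671 in WT mice and 1.782, 3.425 and 2.103 in Trpm2-/- mice. Rhcg over Foxi1 was 2.029, 2.436 and 1.939 in WT mice and 0.4537, 1.312 and 1.705 in Trpm2-/- mice. The ratios over Slc26a4 overlapped between genotypes, and the others did not. How often ratios of other gene pairs do not overlap was not counted.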
